A study of Caenorhabditis elegans with 12 samples.

Results

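Cytochrome P450 genes of the nematode Caenorhabditis elegans were compared between whole wild-type worms and whole xpf-1 mutants by mRNA sequencing. The members were all genes in the deposited table whose name starts with cyp- followed by a digit, which are 81 of 46726 genes. Of these, 75 are annotated there as protein-coding and 6 as pseudogenes. By name they fall into cyp-13 with 14 genes, cyp-14 with 5, cyp-25 with 6, cyp-33 with 18, cyp-34 with 10, cyp-35 with 11, and 17 genes of other subfamilies. The wild-type group had 6 libraries of the strain N2. The mutant group had 6 libraries of strain TG1660, with the genotype xpf-1(tm2842), which is impaired in a nuclease of nucleotide excision repair. Both groups were labelled day 7, and the design text of the series calls the worms adults. Both were fed the same Escherichia coli strain, and no other agent is named in the labels. P450 genes with another kind of symbol, such as daf-9 of steroid hormone synthesis, are not members.

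Cytochromes P450 are heme enzymes that use electrons from NADPH, passed on by a reductase, to add oxygen to their substrates. In C. elegans the reductase of the endoplasmic reticulum is EMB-8. Several subfamilies have expanded in tandem on the chromosomes. Members of several of these expanded subfamilies, among them cyp-13A and cyp-35, are known to respond to foreign compounds, and cyp-35A genes are also linked to fat storage. CYP-29A3 and CYP-33E2 are known to make eicosanoids from long polyunsaturated fatty acids. CYP-31A2 and CYP-31A3 act redundantly to make a lipid of the eggshell that keeps the embryo impermeable.

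Total counts ran from 18407182 to 22817135 per library. The xpf-1 transcript stood at 72.9 ± 7.18 CPM (read counts scaled to a library size common to all samples) in the N2 libraries, and in those of the mutant at 11.7 ± 1.57 CPM (SD, n = 6 each), a log2 fold of -2.64. The library titled N2 replicate 6 has a genotype label that names the mutant. Its title and strain say N2, where it was kept. It had 1468 xpf-1 reads, while mutant libraries had 213 to 304. N2 replicate 5 had 0.884% of its counts on mitochondrial genes, the lowest share of the 12. Over all genes, the chi-square of the counts per degree of freedom was 40.8 to 58.9 between N2 replicate 5 and the other N2 libraries, beside 5.80 to 19.8 among those. xpf-1 replicates 1 and 5 differed from the other 4 mutant libraries by 20.5 to 39.6, beside 6.14 to 10.6 among the 4. Without these 3 libraries, a setting chosen after seeing the data, 20 P450 genes rose and 14 fell. These are 33.3% and 23.3% of the 60 tested, beside 25.9% and 26.9% of all 14491 tested genes. Without N2 replicate 6, 20 of 61 tested P450 genes rose and 11 fell, beside 4194 and 4153 of all 14433 tested genes. Without N2 replicate 5, 20 of 60 rose and 13 fell, beside 4101 and 4094 of 14458. Of the lists of tissue markers, the germline and oocyte list fell as a whole: 17 of 17 genes were lower, with a median log2 fold of -0.85. With all 12 libraries, 29.6% of all tested genes were lower. Its summed level ran from 5542 to 6405 CPM in N2 and from 3043 to 3349 CPM in the mutant.

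The P450 family as a whole took a similar small share of the counts in both groups, and single subfamilies moved in opposite directions. All 81 members had at least 1 read, and 58 had enough reads to be tested. Of the 58, 20 rose in the mutant, 12 fell and 26 did not pass edgeR's quasi-likelihood test at an adjusted p of 0.05. The 32 called members are 55.2% of those tested, beside 59.7% of all 14248 tested genes, so P450 genes were called about as often as other genes. The higher calls are 34.5% of the tested members beside 30.1% of all genes, and the lower calls 20.7% beside 29.6%. At least 2-fold changes were found for 10 higher members, beside 6.23% of all genes, and for 1 lower member, beside 2.51% of all genes. The 10 are 17.2% of the tested members. Among them, cyp-13A2, cyp-13A3 and cyp-34A7 had enough reads to be tested only through the mutant libraries. They reached the limit on low counts in all 6 of those but in only 3, 2 and 2 N2 libraries, which favours higher calls. Every mutant library lay above every N2 library for 14 members, or 24.1%, beside 17.9% of all genes, and below for 9 members, or 15.5%, beside 20.3%. The median log2 fold was 0.16 over the tested members and 0.03 over all tested genes. Tested members with a mean of at least 1 CPM over all 12 libraries numbered 52, of which 17 rose and 12 fell, with a median of 0.10. That mean includes the mutant libraries too.

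**Figure D1:**
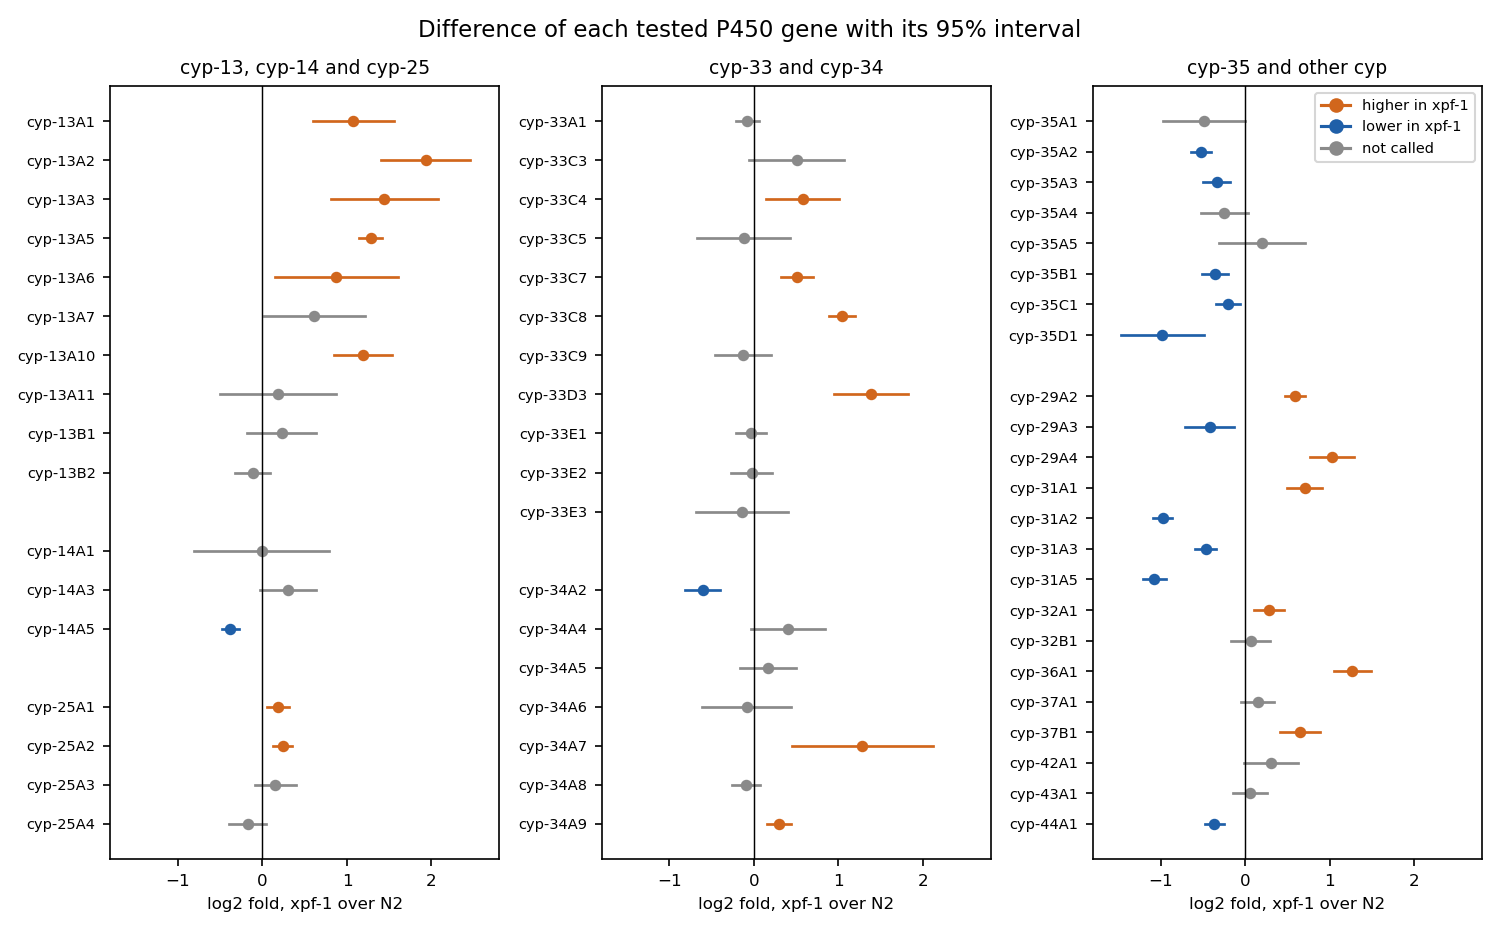
Log2 fold of xpf-1 over N2 for the 58 tested P450 genes, with the 95% interval of the edgeR fit as a horizontal line and colour for the call at an adjusted p of 0.05. Of the 10 tested cyp-13 genes 6 are called higher and none lower, while 5 of the 8 tested cyp-35 genes are called lower and none higher. Of the 6, cyp-13A2, cyp-13A3 and cyp-13A6 passed the low-count filter mainly through the mutant libraries.

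Counts on P450 genes made up 0.107% to 0.118% of the library in N2 and 0.104% to 0.114% in the mutant. Summed over all members, the lowest, median and highest N2 library had 1114, 1142 and 1197 CPM, and the mutant libraries 1037, 1059 and 1097 CPM. The groups did not overlap, and the log2 ratio of the means was -0.11. Both depended on the scaling: by library totals alone the groups overlapped and the log2 ratio was -0.045, and by upper quartiles they overlapped with -0.039. The sum hid opposite shifts. The cyp-13 and cyp-33 sums were higher in every mutant library than in every N2 library, the cyp-14, cyp-35 and other sums were lower, and the cyp-34 sums overlapped between the groups. These held under the 3 other scalings tried. The cyp-25 sums overlapped here but not under those 3, where the mutant libraries were higher.

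**Figure D2:**
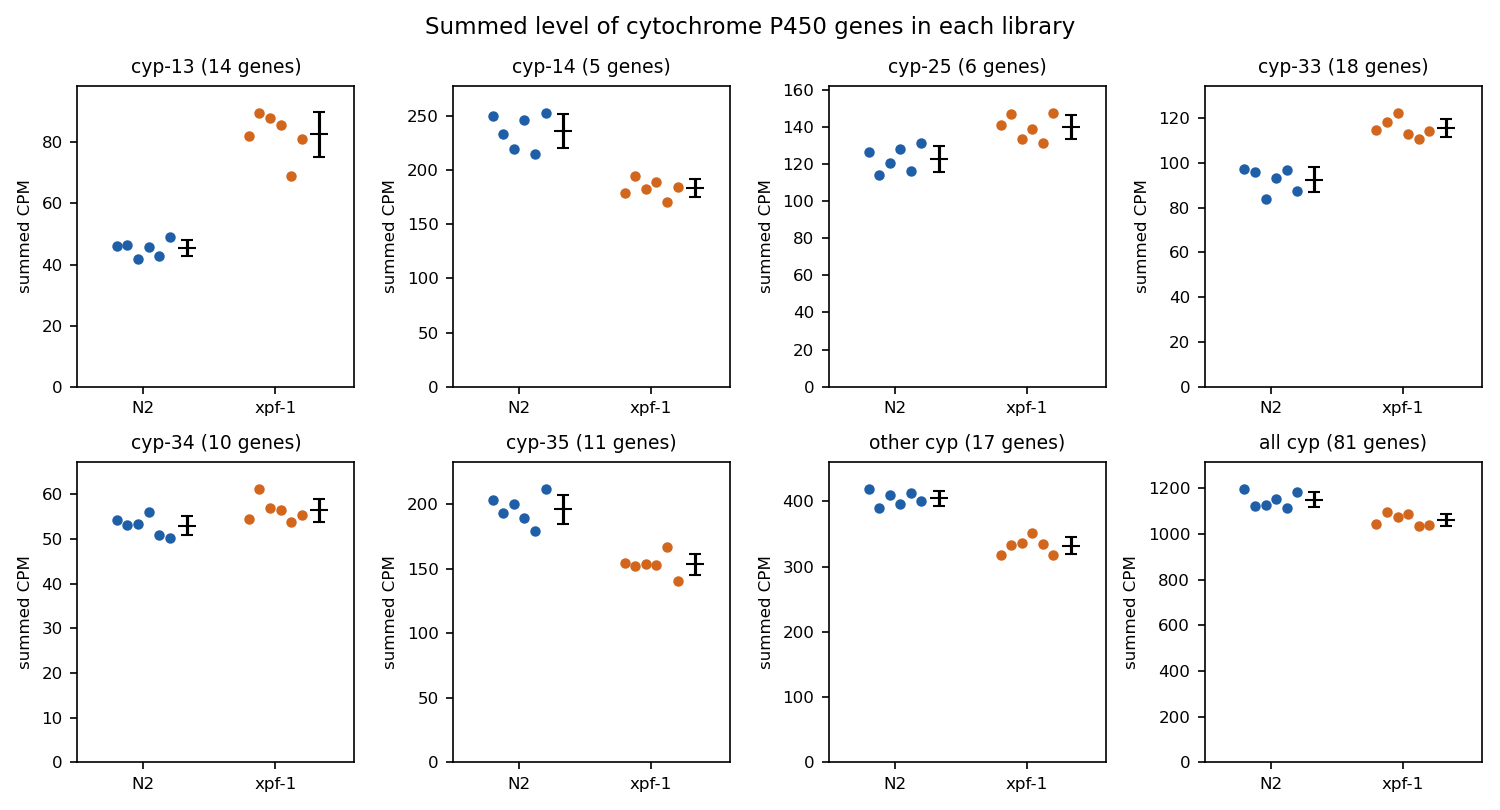
Summed CPM of the P450 genes of each class in each library (vertical axis, from 0), with 1 point per library and the mean ± SD of the 6 libraries of a group as a bar. The cyp-13 sum goes from 45.3 ± 2.62 to 82.6 ± 7.38 CPM with no overlap, and the cyp-35 sum from 196 ± 11.4 to 154 ± 8.22 CPM with no overlap.

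Per kilobase of the deposited gene length, cyp-14A5 had the highest level of the family in both groups, with 146 CPM per kb in N2 and 112 in the mutant. Next in N2 came cyp-31A2 at 63.4 and cyp-31A5 at 62.7 CPM per kb, which were close together beside SDs of 3.48 and 3.70. They were followed by cyp-35A2 at 43.4 and cyp-35C1 at 42.3 CPM per kb, a pair that also lay within an SD of each other. In the mutant the order below cyp-14A5 changed. There cyp-25A2 came second at 44.6 CPM per kb, cyp-35C1 the third at 36.8, and cyp-31A2 and cyp-31A5 stood at 32.3 and 29.8 CPM per kb. The deposited length of cyp-31A5 is 1048 bases, while its exons in the Ensembl annotation of the same build cover 1399. With the longer length its level per kb would be lower in both groups, so its place close to cyp-31A2 depends on the length used. From N2 to the mutant, cyp-13A5 went from rank 15 to rank 7. The 5 members with the most reads held 46.5% of the family's CPM in N2 and 38.9% in the mutant, without correction for length.

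The cyp-13 subfamily had the largest rise in summed level of the classes, with a log2 ratio of the means of 0.87. Of 10 tested genes, 6 rose, none fell and 4 did not pass the test, and the 6 that rose belong to cyp-13A. The median log2 fold over the 10 was 0.98. Some of these genes passed the filter on low counts, set at 0.49 CPM in at least 6 libraries, through the mutant libraries in which they were high. cyp-13A2 and cyp-13A3 reached it in all mutant libraries but in only 3 and 2 of the N2 libraries, cyp-13A7 in 5 of them, and cyp-13A6 in 1 N2 and 5 mutant libraries. The 6 tested cyp-13 genes with a mean of at least 1 CPM over all 12 libraries had 4 that rose and none that fell. That mean includes the mutant level, so it does not remove the effect of the filter. Of the 4, cyp-13A2 and cyp-13A1 had means of 0.489 and 0.931 CPM in N2 and of 1.865 and 1.97 CPM in the mutant.

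The cyp-13 gene with the most reads in both groups was cyp-13A5 (chromosome II, 9798276 to 9800363, minus strand, WBcel235). It had a lowest, median and highest level of 20.2, 20.9 and 23.1 CPM in N2 and of 44.2, 52.7 and 56.7 CPM in the mutant. All mutant libraries lay above all N2 libraries by a wide gap. The log2 fold was 1.28 ± 0.07 (SE), or 2.43-fold, with a 95% interval of 1.15 to 1.42 and an edgeR adjusted p of 4.47e-17. Its share of the summed cyp-13 CPM was 46.7% in N2 and 62.2% in the mutant.

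cyp-13A10 (chromosome II, 9660839 to 9662946, minus strand) lies apart from the tandem copies and went from 1.24, 1.84 and 2.65 CPM in N2 to 3.77, 4.46 and 5.06 CPM in the mutant. The groups were separate, and the log2 fold was 1.19 ± 0.17 (edgeR adjusted p 2.70e-07). cyp-13A2 (chromosome II, 9783818 to 9787398, minus strand) had 0.272, 0.503 and 0.678 CPM in N2 and 1.57, 1.85 and 2.35 CPM in the mutant, the largest fold of the tested family members. Its groups were also separate, with a log2 fold of 1.93 ± 0.26 and an edgeR adjusted p of 1.21e-07. cyp-13A3 (chromosome II, 9788801 to 9793284, minus strand) had 0.243, 0.445 and 0.681 CPM in N2 and 0.7504, 1.34 and 1.79 CPM in the mutant. Its groups were separate as well, though the gap between the highest N2 and the lowest mutant library was small, and the log2 fold was 1.44 ± 0.31 (edgeR adjusted p 0.000165).

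The other cyp-13A genes were low in both groups. cyp-13A1 rose by 1.08 ± 0.23 on the log2 scale, from a mean of 0.931 ± 0.165 to 1.97 ± 0.447 CPM (SD, n = 6), with groups that overlapped here but not under the 3 other scalings. cyp-13A6 passed the test with a log2 fold of 0.88 ± 0.36 and an edgeR adjusted p of 0.0339, but kept the call in only 10 of the 22 alternative settings of the processing that tested it, over which its adjusted p ran from 0.0121 to 0.1504. cyp-13A7, which is known to respond to the antibiotic rifampicin, did not pass, with a log2 fold of 0.61 ± 0.29 and an edgeR adjusted p of 0.0696; over the 22 settings that tested it, the adjusted p ran from 0.0249 to 0.400. cyp-13A4 was not tested. It was without reads (0) in all 6 N2 libraries and had 21 reads in 5 of the 6 mutant libraries. Against a floor of 3 reads over the N2 group this is 6.64-fold higher, with the 21 reads taken as they stand.

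Not all cyp-13 genes passed the test. cyp-13A11 on chromosome III had a log2 fold of 0.19 ± 0.33, with an interval of -0.50 to 0.87 that includes large changes either way. cyp-13A12, its neighbour, which is known for its role in the response to reoxygenation, had 46 reads in N2 and 28 in the mutant and was not tested. On chromosome X, cyp-13B1 went from 5.04, 6.22 and 9.72 CPM in N2 to 4.67, 8.02 and 10.98 CPM in the mutant and cyp-13B2 from 9.04, 10.5 and 13.3 to 8.53, 9.82 and 11.4 CPM. Both overlapped widely between the groups, with log2 folds of 0.23 ± 0.19 and -0.12 ± 0.10 and intervals of -0.18 to 0.64 and -0.33 to 0.09.

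Of the 12 cyp-13A genes, 9 lie side by side on chromosome II, from 9779182 to 9807532. Of these, 6 were tested and 5 rose, with log2 folds of the 6 from 0.61 to 1.93. The risen are 83.3%, beside 30.1% of all tested genes. That share is raised by the filter on low counts. Of the 5, cyp-13A2, cyp-13A3 and cyp-13A6 reached its limit in only 3, 2 and 1 N2 libraries and were tested mainly through the mutant libraries. Neighbouring P450 genes do not always move together. The largest run of the family, 11 genes of the cyp-35 and cyp-34 subfamilies on chromosome V from 3936374 to 3973001, had 8 tested genes, of which 2 rose, 1 fell and 5 did not pass. Its 36.6 kb hold both the fallen cyp-35B1 and the risen cyp-34A9. The other risen gene, cyp-34A7, was also tested through the mutant libraries. In this run 25% rose and 12.5% fell, beside 30.1% and 29.6% of all tested genes. Tandem copies have similar sequences, and how reads that fit several copies were counted is not stated in the sources used here, so the split of reads among them is uncertain.

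**Figure D3:**
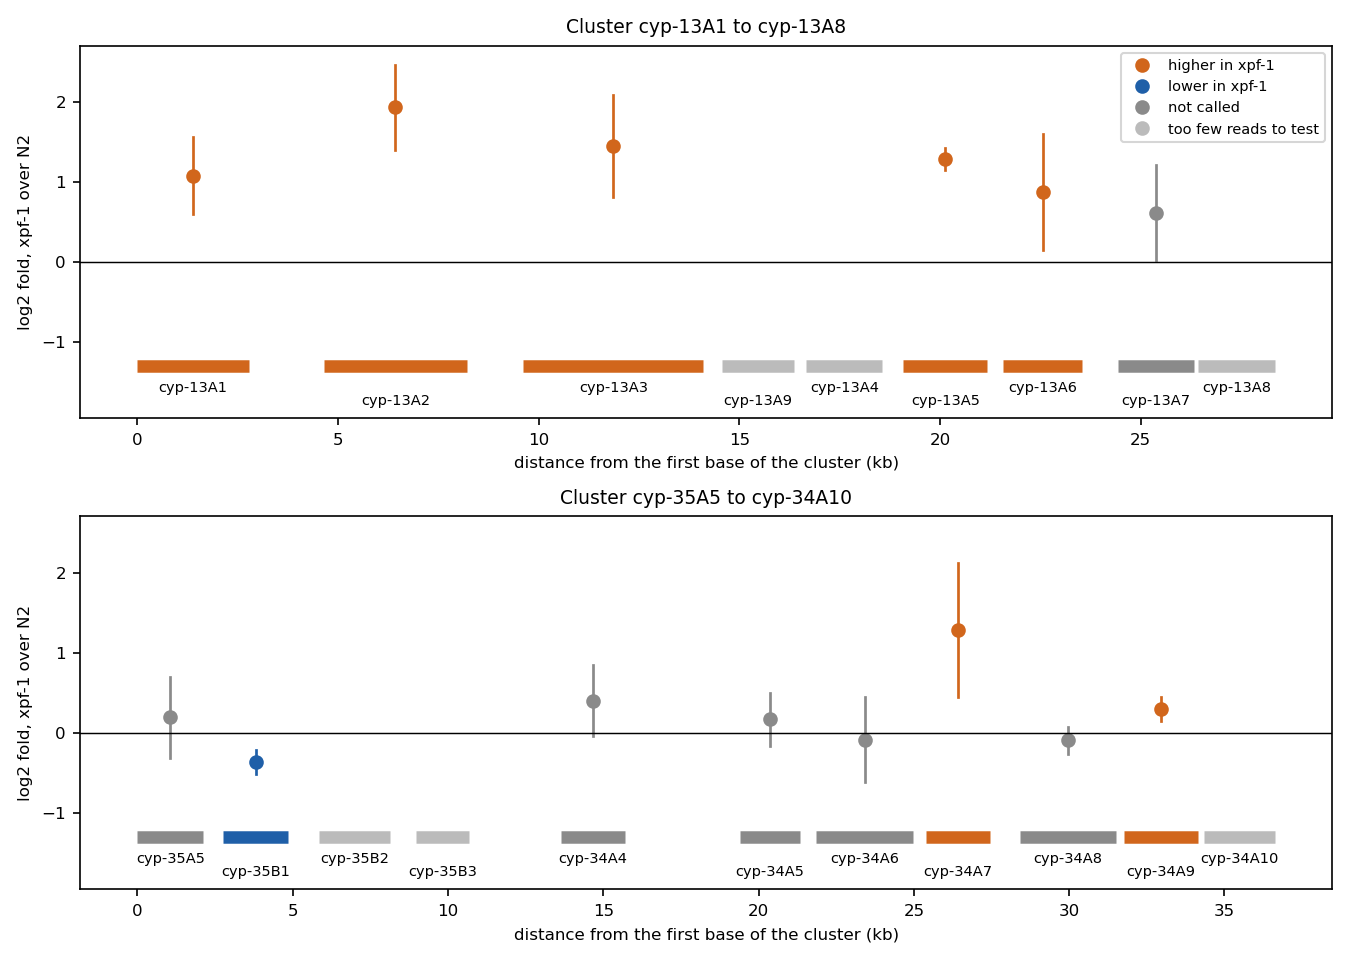
Log2 fold (vertical axis, with the 95% interval) of the P450 genes in the 2 longest runs of neighbouring members, by distance in kb from the first base of the run. Bars mark the genes and colours the call. In the upper panel all 6 tested genes lie above 0 and 5 are called higher. In the lower panel 2 of 8 are called higher and 1 lower. Of the genes called higher, cyp-13A2, cyp-13A3, cyp-13A6 and cyp-34A7 passed the low-count filter mainly through the mutant libraries.

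All 4 cyp-31A genes changed, 3 down and 1 up. Their summed level had a lowest, median and highest value of 221, 236 and 243 CPM in N2 and of 126, 138 and 152 CPM in the mutant. The groups were far apart, with a log2 ratio of the means of -0.76. The eggshell gene cyp-31A2 (chromosome IV, 11403961 to 11406058, plus strand) stood at 92.4, 102 and 107 CPM in N2 and at 47.8, 51.02 and 58.3 CPM in the mutant. All its mutant libraries lay far below all N2 libraries, with a log2 fold of -0.98 ± 0.06 with an interval of -1.09 to -0.86 (edgeR adjusted p 6.90e-16).

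Its redundant partner cyp-31A3 (chromosome IV, 4761060 to 4762856, plus strand) fell less. It went from 54.3, 58.2 and 62.7 CPM in N2 to 38.03, 42.7 and 45.5 CPM in the mutant, with separate groups and a log2 fold of -0.47 ± 0.06, an interval of -0.59 to -0.35 and an edgeR adjusted p of 3.68e-08. cyp-31A5 (chromosome IV, 13401306 to 13403831, plus strand) went from 60.3, 65.8 and 71.6 CPM in N2 to 27.2, 31.6 and 34.6 CPM in the mutant. Mutant and N2 libraries did not overlap, and its log2 fold of -1.07 ± 0.06 is the only fall of at least 2-fold among the 58 tested members (edgeR adjusted p 2.10e-15). The pseudogene cyp-31A1 (chromosome IV, 9101773 to 9103851, minus strand) went the other way, from 6.76, 8.18 and 9.299 CPM in N2 to 10.7, 13.04 and 15.4 CPM in the mutant. Its groups did not overlap either, and its log2 fold was 0.70 ± 0.10 (edgeR adjusted p 5.47e-07).

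The cyp-31A copies are similar in sequence, so their reads may not be fully told apart. cyp-31A5 also shares 7.2% of its exon bases with Y62E10A.19 on the opposite strand, which had a log2 fold of -0.17 (edgeR adjusted p 0.271). Other genes of the eggshell and its lipid barrier fell along with the cyp-31A genes. Such genes were listed 11 in number: 7 of them fell, 1 rose, and the median log2 fold was -1.03. The fallen are 63.6% and the risen 9.09%, beside 29.6% and 30.1% of all tested genes. The proteoglycan gene cpg-2 had a log2 fold of -1.33 ± 0.06 and cpg-3 of -1.15 ± 0.05, while fasn-1, which encodes fatty acid synthase, had 1.68 ± 0.08. The germline and oocyte markers were lower in the same libraries, all 17 of them, with log2 folds from -1.38 to -0.31, and none was at 0 reads. The genes cpg-1 and cpg-2 stand in both lists. Their part in the lower cyp-31A counts was not tested, and in whole worms fewer cells of a type and less RNA per cell cannot be told apart.

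**Figure D4:**
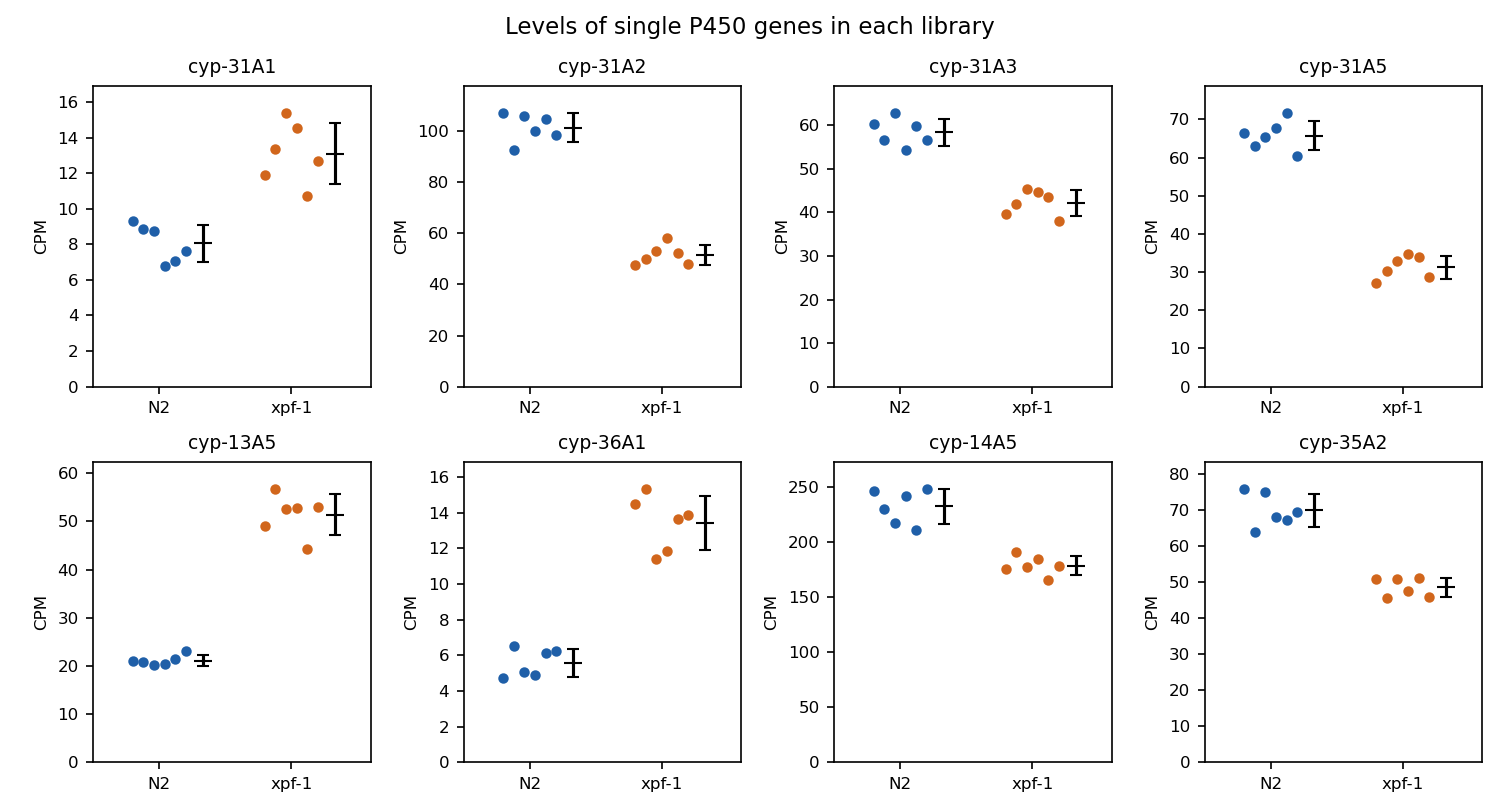
CPM of 8 P450 genes in each library (vertical axes, from 0), with 1 point per library and the mean ± SD of the 6 libraries of a group as a bar. Each of the 8 separates the groups: cyp-31A2, cyp-31A3, cyp-31A5, cyp-14A5 and cyp-35A2 are lower and cyp-31A1, cyp-13A5 and cyp-36A1 higher in all mutant libraries.

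The cyp-35 genes, known for fat storage and for their response to foreign compounds, moved down or did not pass. Of 8 tested, 5 fell and none rose, and the median log2 fold was -0.35. The summed level had a lowest, median and highest value of 179.5, 197 and 212 CPM in N2 and of 141, 153 and 167 CPM in the mutant, which did not overlap. cyp-35A2 (chromosome V, 7362316 to 7364204, minus strand) went from 63.9, 68.9 and 75.9 CPM in N2 to 45.5, 49.2 and 51.1 CPM in the mutant. The groups were separate, with a log2 fold of -0.53 ± 0.06 and an interval of -0.64 to -0.41 (edgeR adjusted p 1.74e-09). cyp-35B1 (chromosome V, 3939127 to 3941235, plus strand) had 24.6, 25.3 and 27.4 CPM in N2 and 16.2, 20.8 and 21.7 CPM in the mutant. Its highest mutant library was below the lowest N2 library, and the log2 fold was -0.36 ± 0.07 (edgeR adjusted p 0.000103).

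The abundant cyp-35C1 (chromosome V, 13896657 to 13898488, minus strand) had 55.7, 63.99 and 78.9 CPM in N2 and 50.2, 56.1 and 62.03 CPM in the mutant, and the groups overlapped. Its log2 fold of -0.20 ± 0.07 passed (edgeR adjusted p 0.0119) but was lost without N2 replicate 6, the highest N2 library, where the log2 fold was -0.14 with an edgeR adjusted p of 0.0567. It was also lost when scaled by library totals alone (edgeR adjusted p 0.0806) or by upper quartiles (0.104), and with replicates 1 to 3 alone (0.0768). Over all settings its adjusted p ran from 0.000318 to 0.604. cyp-35A3 fell by 0.34 ± 0.08 on the log2 scale. The thiabendazole-responsive cyp-35D1 fell by 0.98 ± 0.24, from a mean of 1.89 ± 0.317 to 0.956 ± 0.319 CPM. For both cyp-35A3 and cyp-35D1 the groups overlapped slightly. cyp-35A1, cyp-35A4 and cyp-35A5 did not pass, with log2 folds of -0.49 ± 0.24, -0.25 ± 0.14 and 0.19 ± 0.25. The list of 10 intestine markers had 3 genes higher and 3 lower, or 30% each, near the shares of all tested genes. Its median log2 fold was -0.02, and its summed level was 690.6 to 822 CPM in N2 and 568 to 834 CPM in the mutant.

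In the cyp-14 subfamily almost all reads came from cyp-14A5 (chromosome V, 5421012 to 5423305, minus strand). It had 211, 235.4 and 248 CPM in N2 and 166, 178 and 191 CPM in the mutant. The most abundant P450 transcript was thus lower in every mutant library, by a moderate log2 fold of -0.38 ± 0.05 with an interval of -0.48 to -0.28 (edgeR adjusted p 5.07e-08). The 4 other cyp-14A genes lie together on chromosome X from 13265081 to 13284204, and none was called. cyp-14A3 had 2.18, 3.19 and 3.72 CPM in N2 and 2.79, 3.87 and 4.95 CPM in the mutant, with overlap and a log2 fold of 0.30 ± 0.16. cyp-14A1 was near the detection limit, at 0.226, 0.492 and 0.936 and 0.217, 0.6002 and 0.882 CPM, and its interval of -0.80 to 0.79 leaves room for a change in either direction.

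The cyp-33 subfamily had 4 genes that rose, none that fell and 7 that did not pass among 11 tested. Its median log2 fold was -0.02, so the rise of its sum came from few genes. cyp-33C8 (chromosome V, 3800776 to 3803454, minus strand) went from 13.7, 15.6 and 17.9 CPM in N2 to 30.5, 31.9 and 35.9 CPM in the mutant. The groups were far apart, with a log2 fold of 1.04 ± 0.08 and an interval of 0.89 to 1.20 (edgeR adjusted p 1.62e-13). cyp-33C7 (chromosome V, 2250545 to 2252524, plus strand) went from 9.13, 12.1 and 14.8 CPM to 16.6, 17.5 and 18.7 CPM, without overlap and with a log2 fold of 0.51 ± 0.09. cyp-33D3 (chromosome V, 18832327 to 18837214, minus strand) was lower in abundance, with 0.832, 1.24 and 2.09 CPM in N2 and 2.74, 3.07 and 4.76 CPM in the mutant. It too separated the groups, with a log2 fold of 1.39 ± 0.21 (edgeR adjusted p 1.29e-06).

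cyp-33C4 rose by 0.58 ± 0.21 on the log2 scale with overlapping groups, and this call was lost, among other settings, without xpf-1 replicate 3, where the edgeR adjusted p was 0.0753, within a range of 0.00462 to 0.149 over the settings. cyp-33A1, the cyp-33 gene with the most reads in N2, did not pass: it had 27.8, 31.5 and 34.4 CPM in N2 and 28.1, 29.6 and 31.4 CPM in the mutant, and a log2 fold of -0.08 ± 0.07. The eicosanoid gene cyp-33E2 (chromosome IV, 8612392 to 8614647, plus strand) had 5.72, 6.78 and 8.39 CPM in N2 and 5.75, 6.504 and 8.47 CPM in the mutant. The groups covered almost the same range, and the log2 fold was -0.02 ± 0.12 with an interval of -0.27 to 0.22. Its relatives cyp-33E1 and cyp-33E3 did not pass either, with log2 folds of -0.03 ± 0.09 and -0.14 ± 0.27.

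The other eicosanoid gene, cyp-29A3 (chromosome V, 59242 to 63509, plus strand), fell from 3.73, 4.15 and 5.08 CPM in N2 to 2.73, 3.23 and 3.68 CPM in the mutant. The gap between the groups was narrow and closed to an overlap when scaled by library totals or upper quartiles, and the log2 fold was -0.42 ± 0.14 (edgeR adjusted p 0.0105). Both of its tested relatives rose. cyp-29A2 had a mean CPM of 36.3 ± 2.28 in N2 and of 54.7 ± 2.49 in the mutant (SD, n = 6), with a log2 fold of 0.59 ± 0.06. cyp-29A4 (chromosome V, 9654705 to 9657975, plus strand) went from 2.58, 3.26 and 3.56 CPM to 5.76, 6.51 and 7.45 CPM, with separate groups and a log2 fold of 1.03 ± 0.13 (edgeR adjusted p 2.16e-08). In a list of 6 genes that make the fatty acid substrates or hydrolyse the epoxide products, 3 rose and 1 fell. These are 50% and 16.7%, beside 30.1% and 29.6% of all tested genes. The desaturase genes fat-4, fat-1 and fat-2 had log2 folds of 0.35 ± 0.05, 0.19 ± 0.05 and 0.18 ± 0.05.

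The cyp-25 genes changed little. Of 4 tested, 2 rose and none fell, and the overlap of the summed level depended on the scaling, as above. cyp-25A2 (chromosome III, 3835221 to 3837150, plus strand) went from 53.5, 55.9 and 63.1 CPM in N2 to 64.6, 66.5 and 72.6 CPM in the mutant. The groups were just separate, and the log2 fold was 0.24 ± 0.06 with an interval of 0.13 to 0.35 (edgeR adjusted p 0.000409). Its neighbour cyp-25A1 had 44.8, 49.99 and 52.8 CPM in N2 and 48.6, 55.8 and 64.9 CPM in the mutant, with overlap and a log2 fold of 0.18 ± 0.06. Among other settings, this call was lost without N2 replicate 5 (edgeR adjusted p 0.0517) and without xpf-1 replicate 6 (edgeR adjusted p 0.0731), within a range of 0.000745 to 0.119 over the settings. cyp-25A4, at 7.41, 9.09 and 11.8 and 7.49, 7.77 and 9.56 CPM, did not pass.

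The cyp-34 genes were mixed, with 2 that rose, 1 that fell and 4 that did not pass of 7 tested. cyp-34A9 (chromosome V, 3968133 to 3970514, minus strand) rose from 20.4, 24.4 and 26.9 CPM in N2 to 27.9, 29.2 and 33.4 CPM in the mutant. Its groups were narrowly separate, with a log2 fold of 0.30 ± 0.07 (edgeR adjusted p 0.000632). cyp-34A2 (chromosome V, 15288982 to 15291107, minus strand) fell from 8.58, 9.504 and 10.1 CPM to 5.67, 6.05 and 7.33 CPM, without overlap and with a log2 fold of -0.60 ± 0.10 (edgeR adjusted p 3.97e-06). cyp-34A8, at 12.3, 12.6 and 13.99 CPM in N2 and 11.4, 12.3 and 12.6 CPM in the mutant, had a log2 fold of -0.09 ± 0.08 and did not pass. cyp-34A7 rose by 1.28 ± 0.41 on the log2 scale, but it too passed the low-count filter through the mutant libraries, with 2 of the 6 N2 libraries at the limit. cyp-34A1, next to cyp-34A2, had 28 reads in N2 and 91 in the mutant and did not reach the filter.

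Among the single genes of other subfamilies, cyp-36A1 rose most. The gene acts downstream of the oxygen sensor EGL-9 and of HIF-1 in C. elegans. It went from 4.72, 5.59 and 6.501 CPM in N2 to 11.4, 13.7 and 15.3 CPM in the mutant (chromosome I, 8341709 to 8346023, minus strand). The groups were far apart, with a log2 fold of 1.27 ± 0.11, an interval of 1.05 to 1.48 and an edgeR adjusted p of 5.27e-12. It shares 8.4% of its exon bases with figo-1 on the opposite strand, which had 5458 reads in N2, 6713 in the mutant and a log2 fold of 0.23.

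cyp-37B1 (chromosome V, 16278191 to 16280614, plus strand) rose from 4.17, 4.84 and 5.61 CPM in N2 to 6.78, 7.68 and 8.72 CPM in the mutant. Its groups did not overlap, and the log2 fold was 0.65 ± 0.11 (edgeR adjusted p 1.07e-05). cyp-44A1 (chromosome II, 5503966 to 5506115, plus strand), which encodes a P450 of the mitochondrial type, fell from 62.4, 64.8 and 68.3 CPM to 45.6, 49.6 and 56.1 CPM. All its mutant libraries were below all N2 libraries, with a log2 fold of -0.36 ± 0.06 and an interval of -0.48 to -0.25 (edgeR adjusted p 1.45e-06). cyp-32A1 rose slightly, by 0.28 ± 0.09, with overlapping groups. This call was lost with replicates 1 to 3 alone (edgeR adjusted p 0.161) and with N2 replicate 6 counted as a mutant (edgeR adjusted p 0.168). cyp-32B1, cyp-37A1, cyp-42A1 and cyp-43A1 did not pass, with log2 folds of 0.06 ± 0.11, 0.15 ± 0.09, 0.31 ± 0.16 and 0.05 ± 0.10, and cyp-23A1 had too few reads to test.

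For each gene given above by its lowest, median and highest library, wherever the groups did not overlap, an exact two-sided permutation test of the CPM values gave p = 0.00216, the smallest that the 924 splits of 12 libraries allow. For the overlapping cyp-25A1 and cyp-35C1 the exact permutation p was 0.0238 and 0.0281. For the other overlapping genes it ran from 0.0671 for cyp-34A8 to 0.991 for cyp-14A1.

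The partners of the P450 enzymes moved in both directions. Of 6 genes for electron transfer, 1 rose and 4 fell, or 16.7% and 66.7%, beside 30.1% and 29.6% of all tested genes. The cytochrome b5 gene cytb-5.1 rose from 162 ± 10.5 to 241 ± 11.5 CPM (SD, n = 6), a log2 fold of 0.58 ± 0.05. The reductase gene emb-8 fell by 0.28 ± 0.06 on the log2 scale and cytb-5.2 by 0.27 ± 0.05. Of 6 tested genes of heme transport, 2 rose and 1 fell, or 33.3% and 16.7%. The heme exporter gene mrp-5 had a log2 fold of 0.49 ± 0.07, hrg-2 of 0.96 ± 0.25 and hrg-7 of -0.67 ± 0.07.

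Of 21 genes that are known to regulate P450 or detoxification genes or hypoxia signalling, 8 rose, 5 fell and 8 did not pass. The risen are 38.1% and the fallen 23.8%, beside 30.1% and 29.6% of all tested genes. The smallest adjusted p values were in the nuclear receptor genes nhr-25, with a log2 fold of 2.03 ± 0.12, nhr-49 with 0.42 ± 0.06 and nhr-48 with 0.62 ± 0.09. The steroid hormone pathway of dafachronic acid had 2 of 7 tested genes higher and none lower. The 28.6% higher is near the share of all tested genes. In this pathway dhs-16 had a log2 fold of 1.53 ± 0.20 and daf-36 of 0.56 ± 0.12. The pathway's own P450 gene, daf-9, did not pass, with 0.42 ± 0.25 and an edgeR adjusted p of 0.153.

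The other lists of tissue markers moved in different ways. Of 9 tested hypodermis markers 5 rose and 3 fell, or 55.6% and 33.3%, beside 30.1% and 29.6% of all tested genes. All 5 rose by at least 2-fold, which is 55.6% of those tested beside 6.23% of all genes. The median log2 fold was 1.14, and the summed level of the list ran from 406 to 438 CPM in N2 and from 465 to 489 CPM in the mutant. The nuclear receptor gene nhr-25, named above as a regulator, is also in this list. Of 5 muscle markers 3 rose and 2 fell, or 60% and 40%, and of 9 neuron markers 4 rose, or 44.4%, and none fell. The same 30.1% and 29.6% of all tested genes stand beside these lists and the next 2, whose shares rest on few genes. Of the pharynx list 1 of 2 tested genes rose, and of the sperm list the 1 tested gene rose, spe-11 with a log2 fold of 1.29 ± 0.25. Their part in the P450 differences was not tested.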

How the data were processed

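RNA libraries of whole worms were sequenced, 6 per group. Per the submitters' processing notes, reads were handled with CASAVA, HISAT2 2.1.0 and, for counting, featureCounts 1.5.0-p3, on build WBcel235. Whether counting used strand, how it treated reads with several matches, and which annotation release it used is not stated in these notes.

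The authors deposited raw read counts per gene, which were used for every test. They also deposited FPKM values, and a signal made by dividing each library's counts by its size factor, neither of which was used in a test. Per the file headers, the authors' own log2 fold changes and p-values are deposited as well, and these served only for an overlap of calls. Coordinates and lengths are those of the deposited table. All count columns were mapped to samples by name.

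The counts went through filterByExpr, TMM scaling and the robust quasi-likelihood test of edgeR 4.0.16 in R 4.3.3, as 2 groups with no covariate. Benjamini-Hochberg adjustment covered all 14248 tested genes at a threshold of 0.05, and only the P450 genes are described. CPM are counts scaled by library totals times TMM factors, which came to 17690559 to 23615929. SE is from the same fit, and intervals are 95%. The labels speak of triplicates while 6 libraries per group were used, so the spread behind the p-values may in part be technical. The floor for genes without reads in a group covers only the counting error of that group, not that of the other group. The script was tested on simulated data. Alternatives were DESeq2 1.42.0, voom of limma 3.58.1, other scalings, filters and thresholds, the replicate number as a block, and left-out libraries; leaving out 3 libraries together was added after seeing the data.

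The members and the 13 gene lists (electron transfer, heme transport, regulators, dafachronic acid, eggshell barrier, fatty acid substrates, and markers of intestine, hypodermis, germline, muscle, neurons, pharynx and sperm) were chosen with earlier results of these data known. Any member may be named. Every library, or the lowest, median and highest, is given for the 3 tested members with the highest mean CPM in each class, for the 12 with the largest called change whose groups do not overlap and whose higher mean is at least 1 CPM, and for genes with a known role (cyp-31A2, cyp-31A3, cyp-36A1, cyp-29A3 and cyp-33E2). Of each list, up to 3 genes with the smallest adjusted p may be named. cyp-31A copies and other tandem copies may share reads. Of the 81 members, 26 share exon bases with another gene in the Ensembl annotation of the same build. Sequences are not used here.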

Additional observations from a re-analysis of the deposited data

How the results depend on the processing

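Over 23 alternative settings, 15 to 24 P450 genes were called higher and 10 to 13 lower, beside 20 and 12, and no called gene was called in the opposite direction. The same call was kept in every setting by 12 of the 17 higher, 10 of the 12 lower and 20 of the 24 uncalled genes that every setting tested. With 1 library left out, 18 to 22 were higher and 11 to 13 lower, beside 4101 to 4389 and 4084 to 4205 of all genes. Scaling by library totals alone or by upper quartiles gave 24 higher and 11 lower, or 41.4% and 18.97% of those tested, beside 35.2% and 24.8% of all genes with library totals and 36.03% and 24.7% with upper quartiles. There were 20 and 12 with DESeq2 and voom, and 15 and 11 counting N2 replicate 6 as a mutant. The replicate number as a block gave 19 higher and 12 lower. Over all genes, DESeq2 called 4286 higher and 4268 lower, and voom 4340 and 4236. With N2 replicate 6 as a mutant 3282 of all genes were higher and 3370 lower, and with the block 4311 and 4225. Same-numbered libraries of the groups correlated by -0.054 to 0.094 in their deviations from the group means, and only number 2 correlated best with its own number, so the numbers were not taken as pairs. Library totals alone moved the log2 ratio of the summed levels to -0.22 for the other subfamilies, 0.16 for cyp-34 and -0.045 for all members. Upper quartile factors moved it to -0.21, 0.16 and -0.039 for the same sums, to 0.26 for cyp-25 and to 0.39 for cyp-33. With N2 replicate 6 as a mutant it was -0.27 for cyp-14 and -0.26 for cyp-35. 

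Some genes near 0 that never passed the test changed sign. cyp-14A1 was at 0.060 with library totals, 0.068 with upper quartiles, 0.37 with N2 replicate 6 as a mutant and -0.21 to 0.23 with 1 library left out. cyp-33E2 was at 0.044 with library totals, 0.051 with upper quartiles and -0.10 to 0.040 with 1 library left out, and cyp-13B2 at 0.020 with N2 replicate 6 as a mutant. cyp-33C7 and cyp-34A9 lost their calls only with N2 replicate 6 as a mutant, and cyp-29A3 at a threshold of 0.01 and with replicates 1 to 3 alone. cyp-35A1 was called lower without N2 replicate 5 or xpf-1 replicate 1, cyp-14A3 higher without xpf-1 replicate 2 and cyp-42A1 higher without xpf-1 replicate 5 or with replicates 1 to 3 alone. Under library totals and under upper quartiles, cyp-13A7, cyp-14A3, cyp-37A1 and cyp-42A1 were all called higher. Leaving out 3 libraries together (xpf-1 replicates 1 and 5, N2 replicate 5) was chosen after seeing the data and is not among the 23. It gave 20 higher and 14 lower, or 33.3% and 23.3% of those tested, beside 25.9% and 26.9% of all genes. There cyp-34A7 lost its call, cyp-35A1 and cyp-35A4 were called lower and cyp-42A1 higher, and cyp-14A1 and cyp-33E2 stood at 0.47 and 0.058, neither called. The cause was not tested. Depth limits the members under 1 CPM most: 23 had 4 to 121 reads over the 12 libraries and were not tested. Of these, 17 had the higher mean in the mutant, but genes with few reads leaned that way in general. Over all genes, 19689 to 20886 had a read in a mutant library, beside 18419 to 19213 in N2. Without the low-count filter, the median log2 fold over all genes was 0.17, beside 0.03 with it.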

Other observations

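Genes beside the runs of P450 genes, within 20 kb, also changed, where 59.7% of all tested genes were called. Around the cyp-33C run on chromosome V, from 2236179 to 2252524, all 11 tested neighbours that are not P450 genes had positive log2 folds, of which 8 passed the test and none fell. Most of them are nuclear receptor genes, such as nhr-56 with a log2 fold of 0.69 ± 0.10 and nhr-126 with 0.57 ± 0.11. The cyp-33C genes of the run had 2 of 4 tested members higher. Around the cyp-13A run, 2 of 4 tested neighbours rose and 1 fell. The aquaporin gene aqp-10 had a log2 fold of 0.56 ± 0.05, T10B9.9 of 1.04 ± 0.29, ZK1321.4 of -0.80 ± 0.11 and the potassium channel gene shk-1 of -0.00 ± 0.14. Beside the run of cyp-35 and cyp-34 genes, the antimicrobial peptide genes nlp-31 and nlp-27 rose by 1.29 ± 0.10 and 1.09 ± 0.11, while nlp-30 fell by 0.76 ± 0.22 on the log2 scale. Around the cyp-14A run on chromosome X, 5 of 8 neighbours rose and 2 fell, while neither of the 2 tested cyp-14A genes there passed. These genes were looked at after their values were seen, by position alone.

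Chromosome V holds 44 of the 81 members, of which 31 were tested, 10 rose and 8 fell. These are 32.3% and 25.8%, near the 30.1% and 29.6% of all tested genes. None of the 5 tested members on chromosome X was called by edgeR, beside 59.7% of all tested genes. The share among all genes of that chromosome was not computed. The 6 pseudogenes had 1 tested member, cyp-31A1, which rose. Of members with a mean of at least 10 CPM, 9 of 24 rose and 9 fell. Of those with 1 to 10 CPM, 8 of 28 rose and 3 fell. The shares are 37.5% and 37.5% at the higher level and 28.6% and 10.7% at the lower. The share of all genes at the same levels was not computed.

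The authors' deposited table called 21 P450 genes higher and 12 lower. Of these, 19 and 12 were called in the same direction here. cyp-13A6 was called higher only here, and cyp-13A4 and cyp-34A1 only in the authors' deposited table. In 86 sets of 6 values of single P450 genes, class sums and the family's share of counts, no value stood apart from the others of its group by a Dixon test. That test does not cover the whole profile, in which N2 replicate 5 and xpf-1 replicates 1 and 5 differed most from the other libraries.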
